A study of Mus musculus with 9 samples.

Results

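The 10 largest T cell clones of each of 3 mouse melanoma tumours were described one by one by the state of their cells. A clone was all cells of a tumour with the same V gene, CDR3 nucleotides and J gene in the beta chain of the T cell receptor, and the clones with the most cells were taken, whatever those cells expressed. This gave 30 clones of 10784, and 11309 of the 30026 cells with a beta chain. Clones are numbered by size within their tumour, so that clone 1 is the largest.

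B16F10, a transplantable melanoma line of C57BL/6 mice, was injected under the skin of 8-week-old female C57BL/6 mice. CD8+ T cells were sorted from the tumours on day 14, at a stated purity above 95%, after blood-borne leukocytes had been marked by an intravenous antibody and excluded. Single cells were read on BD Rhapsody, a microwell system, with a targeted immune gene panel and receptor libraries. Receptor beta chains of CD8+ CD44high cells of the draining lymph nodes were sequenced in bulk. The mouse of the anti-CD4 tumour had received an antibody against CD4, which depletes CD4 T cells, at 200 µg on days 5 and 9. The other tumours came from 1 untreated mouse and 1 mouse given an antibody against PD-L1 at the same dose and days; both were read in 1 cartridge and told apart by sample tags, antibody-bound barcodes. The labels do not pair the tags with the treatments, so these are called the tag 1 and tag 2 tumours. The anti-CD4 tumour was read in a cartridge of its own, so treatment, mouse and cartridge cannot be told apart. Each tumour is 1 animal, and the cells of 1 clone are not replicates. Spleen T cells with the transgenic Pmel-1 receptor, loaded with the anti-CD4 cells, served as cells from outside the tumour.

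A CD8 T cell that meets its antigen divides, and its daughters share its receptor, so a clone groups cells of 1 origin. In tumours such cells can pass from a progenitor-like state, marked by the transcription factor TCF-1 (gene Tcf7), to a dysfunctional effector state with the inhibitory receptors PD-1 (Pdcd1) and TIM-3 (Havcr2). Granzyme B (Gzmb) is a cytotoxic protease, Ki-67 (Mki67) marks dividing cells, and KLRG1 (Klrg1) marks short-lived effector cells. By the RefSeq annotation of GRCm38, Pdcd1 lies at chr1:94038305-94052553, Klrg1 at chr6:122270596-122282833, Mki67 at chr7:135689784-135716450, Havcr2 at chr11:46454931-46481255, Tcf7 at chr11:52246527-52283383 and Gzmb at chr14:56258836-56262334, all protein-coding.

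The CDR3 is the receptor loop that contacts the antigen peptide, and its middle is made when V, D and J segments are joined. Shown here are the beta chains of the largest clone of each tumour and of the clones that stand out below by their state. Capitals mark the bases between the end of the V gene and the start of the J gene, as the deposited node table of the same mouse places them.

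anti-CD4 clone 1: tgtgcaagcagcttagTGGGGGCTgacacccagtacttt
anti-CD4 clone 2: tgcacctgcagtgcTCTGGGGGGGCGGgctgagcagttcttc
anti-CD4 clone 7: tgtgccagcGGGGGGGTtgaacagtacttc
anti-CD4 clone 8: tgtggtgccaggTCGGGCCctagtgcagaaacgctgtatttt
tag 1 clone 1: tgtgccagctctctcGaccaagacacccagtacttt
tag 1 clone 4: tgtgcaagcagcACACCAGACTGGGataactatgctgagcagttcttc
tag 1 clone 6: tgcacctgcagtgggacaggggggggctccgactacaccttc
tag 2 clone 1: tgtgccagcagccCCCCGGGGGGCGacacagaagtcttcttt
tag 2 clone 6: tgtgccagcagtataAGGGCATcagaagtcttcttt
tag 2 clone 7: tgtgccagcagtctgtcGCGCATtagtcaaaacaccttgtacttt
tag 2 clone 8: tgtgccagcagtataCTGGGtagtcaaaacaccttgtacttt
tag 2 clone 9: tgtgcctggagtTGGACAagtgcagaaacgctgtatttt

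Tag 1 clone 6 has no capitals because it was not listed in the node. The largest tag 1 clone had 1 base between V and J, and anti-CD4 clone 2 had 13. Over all 30 clones the CDR3 was 27 to 48 bases long.

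Many of the clones with different beta chains shared 1 alpha chain, the other part of the receptor. Its CDR3 amino acids were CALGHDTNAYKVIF, read with TRAJ30, and it was the leading alpha chain of 5 of the 10 anti-CD4 clones, of 0 tag 1 clones and of 3 tag 2 clones. The same protein loop came from 2 nucleotide forms, which differ in the fourth codon, printed in capitals.

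anti-CD4 clones 1, 4 and 6, tag 2 clones 5 and 9: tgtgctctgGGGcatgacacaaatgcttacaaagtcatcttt
anti-CD4 clones 3 and 5, tag 2 clone 2: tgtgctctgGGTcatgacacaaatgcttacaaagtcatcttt

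Among all the smaller clones with an alpha chain, the same loop led in 4.17% of the anti-CD4, 0.766% of the tag 1 and 1.46% of the tag 2 clones. TRAJ30 of any sequence was the leading J segment of 8 anti-CD4, 0 tag 1 and 5 tag 2 clones of 10, against 11.6%, 6.28% and 7.21% of the smaller clones. The beta chain gene TRBV19 was used by 4, 1 and 3 of the 10 clones, against 9.08%, 6.78% and 7.05% of the smaller ones. These are counts within 3 mice, with no test.

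Clone sizes differed between the tumours. The 10 largest clones held 51.2% of the anti-CD4 cells (6295 of 12304, exact Clopper-Pearson 95% interval 50.3 to 52.0), 46.3% of the tag 1 cells (2967 of 6412, 45.0 to 47.5) and 18.1% of the tag 2 cells (2047 of 11310, 17.4 to 18.8). All intervals in the text are of this kind and cover counting error only. In the anti-CD4 tumour clone 1 had 2132 cells, clones 2 to 5 had 837, 832, 688 and 484, and clones 6 to 10 had 375, 254, 246, 226 and 221. The tag 1 tumour was led by clone 1 with 1485 cells and clone 2 with 919, followed by a gap to clone 3 with 126 cells, and clones 4 to 10 had 104, 73, 57, 55, 51, 50 and 47. The tag 2 clones had 450, 323, 275, 219, 180, 161, 149, 104, 100 and 86 cells. The next clone outside the list had 203 anti-CD4, 40 tag 1 or 83 tag 2 cells, so the edge of the list is not a break in size. The 3 tumours held 290603510, 132017069 and 230503707 panel reads. Median reads per cell were 21867 in the 10 largest anti-CD4 clones and 20180 in the other cells, 17748 and 17373 for tag 1, and 36896 and 11993 for tag 2. Because the tag 2 clones were read more deeply than the cells they are set against, each cell was thinned to 4000 reads before a gene was called present, and a share below is the percentage of cells with at least 1 read of the gene among those 4000.

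The sorted identity held in most of the clones. Cd8a was read in 96.3% to 99.6% of the cells of the anti-CD4 clones, in 93.0% to 99.4% for tag 2 and in 66.0% to 92.7% for tag 1, and Cd4 in at most 1.81% of the cells of any clone. Among the B cell markers, Cd79a was read in at most 0.407% and Cd79b in at most 4.03% of the cells of a clone, but Igkc in up to 48.9% and Ighm in up to 75%. A macrophage or B cell marker was read in 17.5% to 30.1% of the cells of the anti-CD4 clones, 5.26% to 51.1% for tag 1 and 7.76% to 78% for tag 2. The summed level of the 6 macrophage or monocyte markers measured ran from 61.0 to 9069 CPM (reads scaled to a common total of panel reads) over the anti-CD4 clones, from 0 to 147 over the tag 1 clones and from 24.2 to 4070 over the tag 2 clones. The 5 dendritic cell markers measured summed to 80.9 to 22808, 0 to 567 and 81.5 to 1740 CPM in the same order, and the B cell markers to 407 to 1022, 49.6 to 3509 and 334 to 7616 CPM. Lyz2, a lysozyme gene of myeloid cells that CD8 T cells should lack, was read in up to 5.91% of the cells of an anti-CD4 clone, which is taken as a guide to background in that cartridge. The part of these markers in the state shares was tested only by leaving out the cells that carry them.

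**Figure D1:**
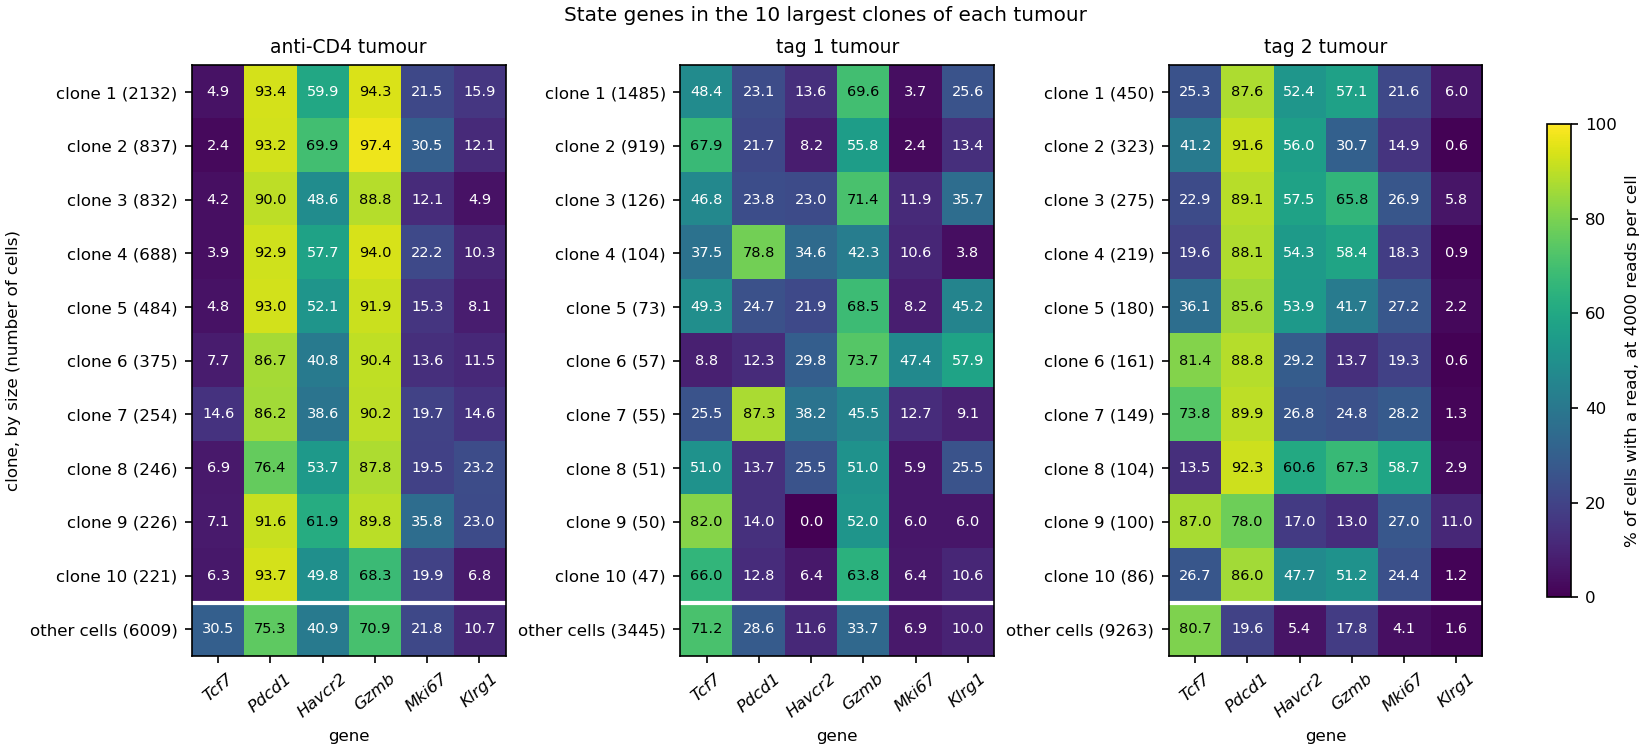
Each panel is 1 tumour; rows are its 10 largest clones by size with their cell numbers, and the last row is all its other cells. Colour and printed numbers give the percentage of cells with a read of the gene at 4000 reads per cell. Gzmb and Pdcd1 are high in all the anti-CD4 rows, Pdcd1 is high in 2 of the 10 tag 1 rows, and Tcf7 runs from 13.5% to 87.0% down the tag 2 rows.

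Tcf7, the progenitor and memory factor, had the widest range of shares of the 6 state genes among the tag 2 clones and was read in few cells of the anti-CD4 clones. Anti-CD4 clones 1 to 5 had Tcf7 shares of 4.88%, 2.39%, 4.21%, 3.92% and 4.75%, and clones 6 to 10 had 7.73%, 14.6%, 6.91%, 7.08% and 6.33%. In clones 2 and 3 the Tcf7 share was below that of Lyz2 (4.66% and 4.57%) and is read as background. Anti-CD4 clone 7 was the highest at 14.6% (10.5 to 19.5), and all 10 clones lay under the 30.5% (29.3 to 31.6) of the other cells of the tumour, with intervals that did not overlap. In clone 7, 5 cells held 54.9% of the Tcf7 reads. Tag 1 clones 1 to 5 had 48.4%, 67.9%, 46.8%, 37.5% and 49.3%, and clones 6 to 10 had 8.77%, 25.5%, 51.0%, 82.0% and 66.0%. Clone 6 (2.91 to 19.3) and clone 9 (68.6 to 91.4) were the ends of that order. By level the highest was clone 8, at 3181 CPM, with 53.5% of its Tcf7 reads in 5 of 51 cells. Tag 2 clones 1 to 5 had 25.3%, 41.2%, 22.9%, 19.6% and 36.1%, and clones 6 to 10 had 81.4%, 73.8%, 13.5%, 87.0% and 26.7%. Clones 6, 7 and 9 thus formed a high set, with intervals from 66.0 up, and the 7 other clones stayed under 46.8. The other tag 2 cells were at 80.7% (79.8 to 81.5) and the Pmel-1 spleen cells at 87.1%, so these 3 clones were in the range of cells outside the large clones.

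The inhibitory receptor gene Pdcd1 was read in most cells of every anti-CD4 and tag 2 clone, and in 2 of the tag 1 clones. Over the anti-CD4 clones it ran from 76.4% (70.6 to 81.6) in clone 8 to 93.7% (89.6 to 96.5) in clone 10, with a median of 92.2%, against 75.3% of the other cells. Over the tag 2 clones it ran from 78.0% (68.6 to 85.7) in clone 9 to 92.3% (85.4 to 96.6) in clone 8, with a median of 88.5%, against 19.6% of the other cells. Only 1 of the 45 pairs of tag 2 clones had intervals apart, against 17 pairs among the anti-CD4 clones. These counts depend on cell numbers, which were 86 to 450 per tag 2 clone and 221 to 2132 per anti-CD4 clone. They do not compare how even the clones of both tumours were. The tag 1 clones fell into separate groups, with 78.8% (69.7 to 86.2) in clone 4 and 87.3% (75.5 to 94.7) in clone 7. The other tag 1 clones, 1 to 3, 5, 6 and 8 to 10, had 23.1%, 21.7%, 23.8%, 24.7%, 12.3%, 13.7%, 14.0% and 12.8%. The other cells of that tumour were at 28.6%, between these groups.

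TIM-3, encoded by Havcr2, is added later than PD-1 in the course to dysfunction. Its share in anti-CD4 clones ran from 38.6% (32.6 to 44.9) in clone 7 to 69.9% (66.7 to 73.0) in clone 2, with clones 1, 3, 4, 5 and 6 at 59.9%, 48.6%, 57.7%, 52.1% and 40.8% and clones 8, 9 and 10 at 53.7%, 61.9% and 49.8%. For 8 of these 10 clones the interval lay above the 40.9% of the other cells. In tag 2, clones 6, 7 and 9, the clones high in Tcf7, had 29.2%, 26.8% and 17.0% (10.2 to 25.8), and the others had 47.7% to 60.6%. All 10 were above the 5.43% of the other tag 2 cells. In tag 1 the Pdcd1-high clones 7 and 4 were also highest in Havcr2, at 38.2% (25.4 to 52.3) and 34.6% (25.6 to 44.6). Clone 6, low in Pdcd1, was the next at 29.8% (18.4 to 43.4), and these 3 intervals overlap. Havcr2 was not read in clone 9, 0 of 50 cells, which allows a share of up to 7.11%.

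Gzmb was read in most cells of each anti-CD4 clone. Clones 1 to 9 had shares between 87.8% and 97.4%, while clone 10 had 68.3% (61.8 to 74.4), close to the 70.9% of the other cells. Its levels, as CPM of the summed reads of a clone, were 14783 in clone 10 and 45677 in clone 2. Tag 1 clones ranged from 42.3% (32.7 to 52.4) in clone 4 to 73.7% (60.3 to 84.5) in clone 6, with clone 7 at 45.5%. By level clone 7 was the highest instead, at 15010 CPM, with 74.3% of its Gzmb reads in 5 of 55 cells, so no order of these clones is read from Gzmb. For 8 of the 10 the interval was above the 33.7% of the other cells. The tag 2 clones spread most, from 13.0% (7.11 to 21.2) in clone 9 and 13.7% in clone 6 to 67.3% (57.4 to 76.2) in clone 8. Clones 1 to 5 had 57.1%, 30.7%, 65.8%, 58.4% and 41.7%, clone 7 had 24.8% and clone 10 had 51.2%. Of the 45 pairs of tag 2 clones, 29 had intervals apart for Gzmb and 28 for Tcf7.

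**Figure D2:**
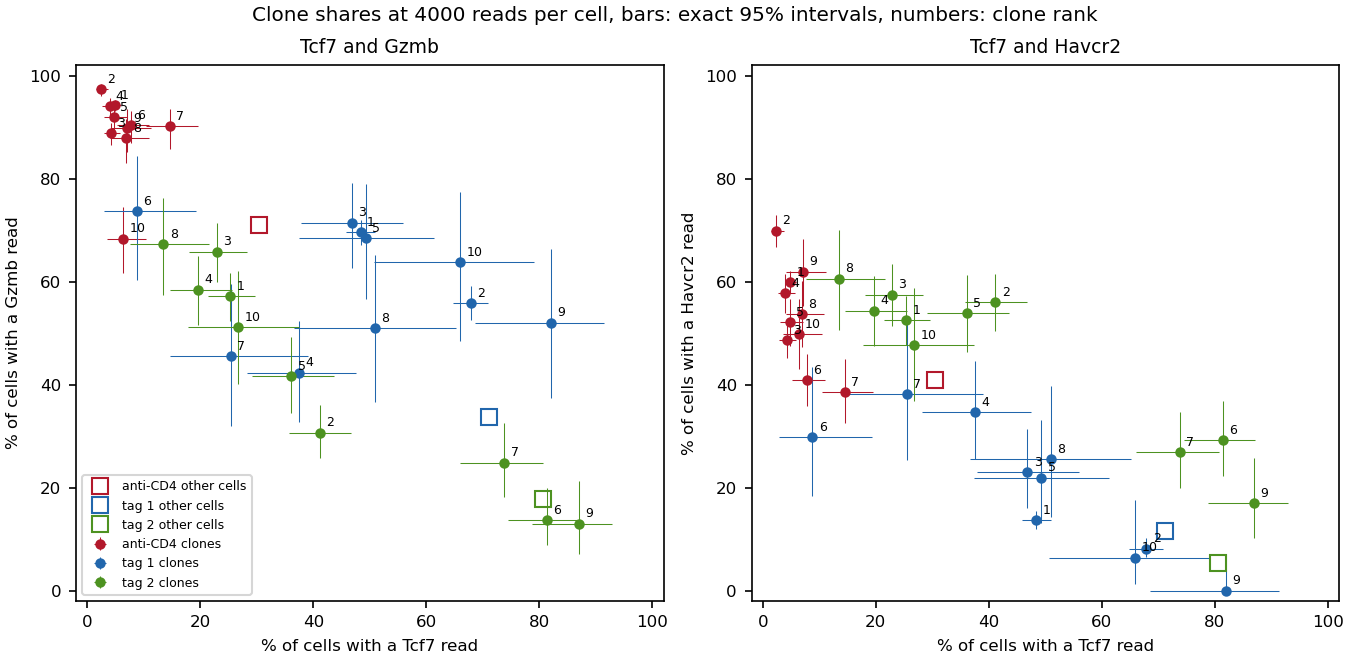
Points are clones, numbered by size, with exact 95% intervals as bars, and open squares are the other cells of each tumour; axes are percentages of cells with a read at 4000 reads per cell. Anti-CD4 clones (red) crowd at low Tcf7 and high Gzmb, the tag 2 clones (green) run from clone 8 at 13.5% Tcf7 and 67.3% Gzmb to clone 9 at 87.0% and 13.0%. Tag 1 clones (blue) reach 82.0% Tcf7 in clone 9 with 52.0% Gzmb and no Havcr2.

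Klrg1 marked the tag 1 clones more than the others. There it ran from 3.85% (1.06 to 9.56) in clone 4 and 9.09% in clone 7 to 45.2% (33.5 to 57.3) in clone 5 and 57.9% (44.1 to 70.9) in clone 6, and the largest clones 1 and 2 had 25.6% and 13.4%. The order of Pdcd1 and Klrg1 was thus opposed in clones 4, 6 and 7. It was not opposed in clones 9 and 10, which were low in both, with Klrg1 in 6.00% and 10.6% and Pdcd1 in 14.0% and 12.8%. Anti-CD4 clones had 4.93% (clone 3) to 23.2% (clone 8, 18.0 to 29.0), with clone 9 at 23.0% and clone 1 at 15.9%. In the tag 2 tumour 9 of the clones had at most 6.00%, and clone 9 had 11% (5.62 to 18.8). The Pmel-1 spleen cells, from the other cartridge, had 2.10%, and tag 2 clones 2, 4, 6, 7 and 10 were at or under that level, at 0.619%, 0.913%, 0.621%, 1.34% and 1.16%, which is read as background. Of the Klrg1 reads of tag 2 clone 9, 87.6% came from 5 cells.

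Mki67 set 1 clone apart in the tag 1 and in the tag 2 tumour. In the first it was clone 6, with 47.4% (34.0 to 61.0) against 2.39% to 12.7% in the other 9 clones. In the second it was clone 8, with 58.7% (48.6 to 68.2) against 14.9% to 28.2%. In the anti-CD4 tumour clone 9 had 35.8% (29.6 to 42.5) and clone 2 had 30.5% (27.4 to 33.7), with overlapping intervals, against 12.1% to 22.2% in the other 8. The same clones led the summed level of the 10 cell-cycle genes measured: 37677 CPM in tag 1 clone 6 against a median of 6789, 48914 in tag 2 clone 8 against 17428, and 28984 in anti-CD4 clone 9 against 15153. Pclaf and Ube2c, a DNA replication and a mitosis factor, were both read in 42.1% of the cells of tag 1 clone 6.

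Pdcd1, Havcr2 and Tcf7 together split each clone into 6 classes of detection, which are ranges and not cell types. In the anti-CD4 clones the leading class was Pdcd1 with Havcr2 and without Tcf7, 51.6% of the 6295 cells, followed by Pdcd1 alone, 35.3%. Clones 6 and 7 were the exceptions, with Pdcd1 alone the larger class at 44.0% and 39.4%. Tcf7 without Pdcd1 was in 0.635% of these cells, against 15% of the other cells of the tumour. Only clones 6 and 7 had 4 classes of at least 5%, and the other 8 had 3.

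In the tag 1 clones the leading classes were Tcf7 without Pdcd1, 41.2% of the 2967 cells, and neither gene, 33.6%. Clone 9 had 72.0% of its cells in the first of these classes, and clone 6 had 80.7% in the second. Clones 4 and 7 had a mix of their own, with Pdcd1 and Havcr2 in 23.1% and 32.7%, Pdcd1 and Tcf7 in 25.0% and 18.2%, and Pdcd1 alone in 26.0% and 30.9%. No other tag 1 clone had over 6.85% of Pdcd1 with Havcr2 and without Tcf7.

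The tag 2 clones were mostly mixed, with 4 to 6 classes of at least 5% in every clone. Pdcd1 with Havcr2 and without Tcf7 led in clones 1 to 5, 8 and 10, at 42.7%, 36.5%, 47.3%, 45.7%, 39.4%, 53.8% and 34.9%. Pdcd1 with Tcf7 and without Havcr2 led in clones 6, 7 and 9, at 49.1%, 57.0% and 57.0%, against 5.77% to 21.1% in the others. Clone 5 held all 6 classes at 6.11% or more. Gzmb differed between the classes: over the 10 clones it was read in 73.6% of the tag 2 cells with Pdcd1 and Havcr2 and without Tcf7, and in 13.7% of those with Pdcd1 and Tcf7 and without Havcr2. The same classes had 95.6% and 66.7% in the anti-CD4 clones and 79.6% and 53.5% in the tag 1 clones. The Tcf7-positive class thus had the lower Gzmb share in each tumour.

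**Figure D3:**
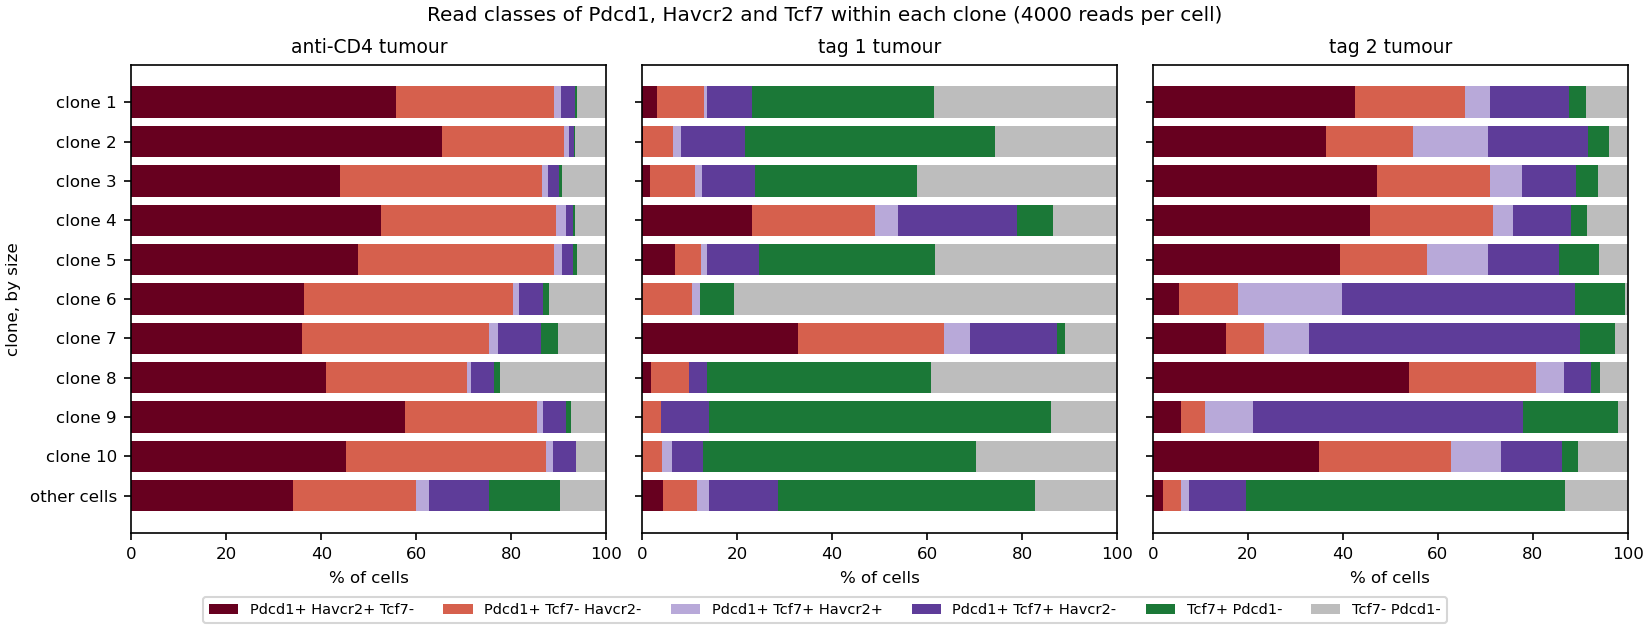
Bars are clones by size, with the other cells of the tumour at the bottom; colours give the percentage of cells in each of 6 classes by reads of Pdcd1, Havcr2 and Tcf7 at 4000 reads per cell. In the anti-CD4 bars Pdcd1 with Havcr2 is the largest class except in clones 6 and 7, tag 1 clones 4 and 7 differ from their neighbours, and tag 2 clones 6, 7 and 9 have Pdcd1 with Tcf7 as their largest class.

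How far apart clones of 1 tumour were is given by the difference between the highest and the lowest share of the 10, with a 95% Newcombe interval for that pair, which does not account for the pair being the extremes. The Tcf7 difference was 12.2 percentage points (7.88 to 17.2) among the anti-CD4 clones, 73.2 (56.2 to 84.3) among the tag 1 clones and 73.5 (62.0 to 81.9) among the tag 2 clones. With at least 2 reads required, the anti-CD4 value was 6.75. Pdcd1 differed by 17.2, 75.0 and 14.3 points in the same order, the last being 28.0 without cells with a macrophage or B cell marker read, Havcr2 by 31.3, 38.2 and 43.6, and Gzmb by 29.0, 31.4 and 54.3. Leaving out those cells kept few of tag 2 clones 8 and 9, where 76.9% and 78% of the cells had such a read. Mki67 differed by 23.7, 45.0 and 43.8 points and Klrg1 by 18.2, 54.0 and 10.4. Tag 1 clones 3 to 10 had 126 cells or fewer, so their shares are the least precise.

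Against other genes the state genes were not unusual in their spread, apart from a few. A gene was called when its CPM in the highest of the 10 clones was at least 4 times that in the lowest, with 10 CPM added to each, among genes with a mean of 50 CPM or more. This held for 74 of 267 genes in the anti-CD4 tumour (27.7%), 150 of 252 in the tag 1 tumour (59.5%) and 108 of 263 in the tag 2 tumour (41.1%). Of the 6 state genes, 3 were called for anti-CD4 (Tcf7 4.78-fold, Mki67 5.07-fold, Klrg1 4.77-fold). For tag 1, 5 of 6 were called: Tcf7 13.8-fold, Pdcd1 30.6-fold, Mki67 27.7-fold, Klrg1 42.6-fold, and Havcr2, whose fold rests on the added 10 CPM because clone 9 is at 0. Gzmb, at 2.75-fold, was not. For tag 2, 4 of 6 were called: Tcf7 9.54-fold, Gzmb 34.1-fold, Mki67 5.42-fold and Klrg1, whose lowest clone had 0.785 CPM. Pdcd1 at 1.41-fold and Havcr2 at 3.68-fold were not. With 6 genes per tumour and these background shares, the counts say little about state genes as a set.

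The share of the variance of a gene's detection that lies between clones ranks genes without a fold limit. Genes read in very few or in nearly all cells of the 10 clones were left out. Klrg1 in tag 2, read in 3.37% of these cells, was one of them. It was 21.1% for Tcf7 among the tag 2 clones, the fourth of 232 genes, and 13.2% for Gzmb, where the median gene had 1.67%. For Pdcd1 it was 0.875% there, rank 176. In the tag 1 clones Pdcd1 had 10.0% (rank 9 of 216), Mki67 8.63%, Tcf7 6.34% and Gzmb 2.95%, with a median of 1.36%. In the anti-CD4 clones Gzmb had 3.85% (rank 10 of 201), Havcr2 2.78% and Tcf7 1.16%, with a median of 0.635%. Clones with no true difference would give a mean of 0.143% for anti-CD4, 0.303% for tag 1 and 0.440% for tag 2.

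The gene with the largest share in each tumour was Trbc1, one of the constant regions of the beta chain, with 62.9%, 32.3% and 66.2%. TRBJ1 segments lie upstream of Trbc1 and TRBJ2 segments upstream of Trbc2, so the Trbc1 level was set beside the J segment of each clone. The 11 clones with a TRBJ1 segment had 19396 to 56335 CPM of Trbc1, 41.9% to 84.0% of the reads of both constant regions, and the 19 clones with a TRBJ2 segment had 41.5 to 21124 CPM, 0.141% to 36.4%. The CPM ranges of both groups overlap. The TRBJ2 clones anti-CD4 clone 5, tag 1 clone 5 and tag 2 clone 9 had a Trbc1 read in 99.4%, 98.6% and 94.0% of cells. The other TRBJ2 clones had 9.07% to 74.7%. Reads of the near-identical constant regions could be assigned to either, so the split between them is uncertain. The cause of the spread in Trbc1 was not tested.

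The genes of widest spread in the anti-CD4 tumour were, besides Trbc1, genes of myeloid and antigen-presenting cells: Ccl9, Cd74, H2-Eb1, C1qa, H2-Aa, H2-Ab1 and Lyz2. They were highest in clone 7, or for C1qa in clone 5, where 5 cells held 98.0% to 99.9% of their reads. These differences are therefore those of a few cells and not of the clone. The same was true of Lyz2 and C1qa in tag 2 clone 1 and of Cxcl10 in tag 1 clone 9, where a single cell held nearly all of the reads (97.7% for Cxcl10).

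Other wide genes were read in more cells, though a few cells still held much of the reads. In tag 1, Il1r2, a decoy receptor for interleukin 1, Xcl1, a chemokine that attracts cross-presenting dendritic cells, and Tnfrsf4, the costimulatory receptor OX40, were highest in clone 4, where 53, 68 and 92 of 104 cells had a read and 5 cells held 33.1%, 52.3% and 19.4% of the reads. The remaining wide genes of that tumour were Pclaf, Ube2c and Havcr2, given above, with 54.0%, 69.4% and 57.9% of the reads in 5 cells of the highest clone. In tag 2, Spp1, encoding osteopontin, was highest in clone 10, at 3033 CPM against a median of 136 over the clones, with 60.2% of its reads in 5 of 86 cells. Igkc, an immunoglobulin chain, was highest in clone 8 at 1969 CPM against a median of 103. Ccl9 and Fcer1g were highest in clone 1, with 52.1% and 56.2% of their reads in 5 of 450 cells. Il1rl1, the receptor for interleukin 33, was highest in clone 7, at 979 CPM with a read in 44 of 149 cells.

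The wider lists place these clones. Of 6 naive or memory genes measured, the sum was lowest in anti-CD4 clone 1 (553 CPM) and highest in clone 8 (2419). It was 777 in tag 1 clone 6 and 29697 in clone 4, where Ccr7 alone had 25843, and 2686 in tag 2 clone 8 and 16669 in clone 6. The sum of the 10 checkpoint genes measured was even over the anti-CD4 clones (36013 to 45456 CPM) and the tag 2 clones (31539 to 41638). Over the tag 1 clones it had a median of 7408, with 44196 in clone 7 and 33663 in clone 4. The sum of the 12 cytokine and chemokine genes measured was lowest, at 34069 CPM, in the dividing tag 1 clone 6, where the median clone had 178271. Over the 10 tag 1 clones together this sum is mainly the chemokine gene Ccl5, at 183621 CPM. Xcl1, another member, was read in 54.4% of the cells of clone 6, against a median of 14.4% over the tag 1 clones, so not every member was low there.

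Several genes outside these lists also separated clones, and those named here were chosen after their values were seen. In tag 1 the Pdcd1-high clones 4 and 7 had reads of Ccr7, the homing receptor for lymph nodes, in 86.5% and 89.1% of cells, against 14.7% to 30.1% in the other clones. They also had Lag3, an inhibitory receptor, in 88.5% and 85.5%, against 11.8% to 26.0%, and Tnfrsf4 in 86.5% and 87.3%, against 1.96% to 21.4%. These clones thus combined checkpoint genes with Ccr7 and with low Klrg1, the last also seen in clones 9 and 10.

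In tag 2, Gzmk, a granzyme of early effector memory cells, was read in 75.0% (65.6 to 83.0) of clone 8, 66.0% of clone 9 and 33.3% of clone 5, against 1.16% to 14.2% in the others. Eomes, a transcription factor of effector memory and exhausted cells, was highest in the same clones, at 65.4%, 68.0% and 52.8%, against 7.31% to 26.0%. Clones 8 and 9 were at opposite ends for the shares of Tcf7, Gzmb and Havcr2. They were also highest in Ighm, an immunoglobulin chain of B cells, at 71.2% and 75.0% of cells, against 4.57% in clone 4 and 29.0% of the other tag 2 cells. Ighm was read in 48.2% of the Pmel-1 spleen cells. The part of B cell RNA in these shares was not tested.

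Clones of the anti-CD4 tumour differed most, after Trbc1, in surface receptor genes, with 14.8% of the variance between clones for Cd6, 7.93% for Cd5 and 7.08% for Klrc1. Cd6, an adhesion receptor of T cells, was read in 25.2% of clone 7, against a median of 76.2% and up to 98.4% in clone 8. Klrc1, encoding the inhibitory NKG2A, was read in 42.3% of clone 8, against a median of 79.3%. Cd5, which dampens receptor signals, was read in 92.7% of clone 2, against a median of 63.8%.

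The anti-CD4 tumour was stained with 2 sample tags, 5 and 6, and both held all 10 clones, which gave a repeat reading within 1 mouse. Over the 10 clones the shares under both tags were related with Pearson r of 0.765 for Tcf7, 0.867 for Pdcd1, 0.829 for Havcr2, 0.896 for Gzmb, 0.905 for Mki67 and 0.896 for Klrg1, as a description over clones of the same mouse and cartridge. The median difference between tags was 1.88 to 3.07 points. The largest was 18.0 points, for Havcr2 in clone 10, with 42.2% under tag 5 and 60.2% under tag 6. The difference had an interval without 0 in 6 of the 60 readings. Both tags had the same highest clone for Tcf7 (clone 7), Havcr2 and Gzmb (clone 2) and Mki67 (clone 9), and the same lowest for Pdcd1 (8), Havcr2 (7), Gzmb (10) and Mki67 (3). The receptor genes repeated more closely, with Cd6 in clone 7 at 25.2% under each tag, Klrc1 in clone 8 at 43.0% and 41.5%, and Cd5 in clone 2 at 93.0% and 92.4%. In contrast, 44 of 272 genes differed at least 4-fold between the tags in clone 7 (16.2%), the clone of the myeloid reads, and 1.17% in clone 1. The share did not follow clone size: it was 11.3% in clone 5 with 484 cells and 3.23% in clone 8 with 246.

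**Figure D4:**
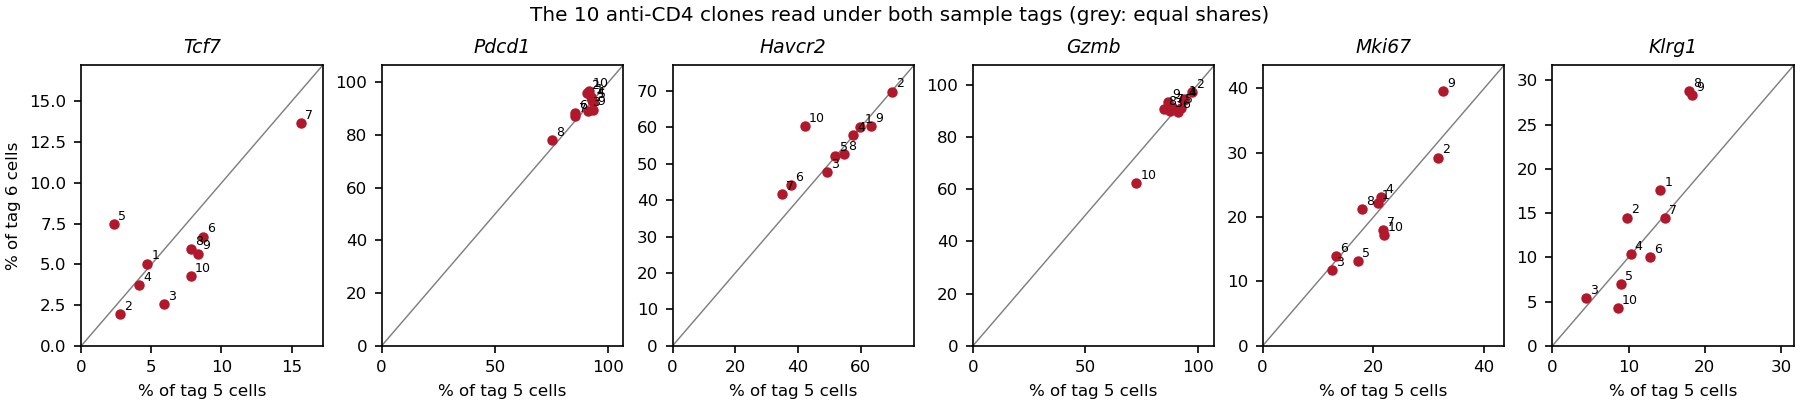
Each panel is 1 gene, and each point 1 of the 10 anti-CD4 clones, with the percentage of cells with a read under tag 5 on the x axis and under tag 6 on the y axis; the grey line marks equal shares. Most points lie near the line, and Havcr2 of clone 10 lies farthest from it, at 42.2% and 60.2%.

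The 2 largest clones of each tumour were then set against all its other cells. Anti-CD4 clone 1 was at least 2-fold higher in 1 of 270 genes (0.37%) and lower in 28 (10.4%). The gene was Cd63, a membrane protein of secretory granules, at 377 against 84.6 CPM, and among the lowest besides Trbc1 was the lymphoid homing gene Ccr7 (73.2 against 2037). The next highest were Spp1 and Itgax, at log2 differences of 0.96 and 0.93. Clone 2 was higher in 4 of 271 genes (1.48%) and lower in 29 (10.7%). It was high in Chil3 (155 against 4.49 CPM), Klra3 (106 against 28.8) and Cd5 (5414 against 2395), and low in C1qa (13.2 against 447) and Foxp3 (15.9 against 264).

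Tag 1 clone 1 was at least 2-fold higher in 7 of 261 genes (2.68%) and lower in 53 (20.3%). It was high in the granzyme gene Gzma (6788 against 2732 CPM), Lilr4b (3271 against 1348) and Entpd1, encoding CD39 (656 against 278), and low in Il1r2, Cd63 and Ccr7 (402 against 7095). Clone 2 was higher in 4 of 255 (1.57%) and lower in 47 (18.4%), with Il33, Tnfrsf25 and Cmklr1 highest and Il1r2, Trbc1 and Cd63 lowest. Its Tnfrsf25, a costimulatory receptor, was at 1621 against 554 CPM.

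Tag 2 clone 1 was at least 2-fold higher in 45 of 283 genes (15.9%) and lower in 48 (17%). Its highest genes, Lyz2, C1qa and Il1rn, include the genes whose reads came from 1 cell, and its lowest included Il6ra (7.54 against 749 CPM) and Klra1. Clone 2 was higher in 21 of 270 (7.78%) and lower in 51 (18.9%). It had Cxcl13, a chemokine that attracts B cells, at 362 against 9.65 CPM, Ifitm3 at 196 against 33.6 and Il1rl1 at 511 against 126. Its lowest were Gzma (10.3 against 1513), Fcer1g and Klra7. All these are differences of 1 clone in 1 mouse, with no test.

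A test over mice was possible for sums alone, and its p-values measure the spread between 3 mice that differ in treatment. Reads were summed over the 10 largest clones and over the other cells of each tumour, and both sums were compared with the mouse as block. This asks whether large clones differ from the rest on average within the 3 mice, and not whether they differ in each mouse. In such sums more cells with a gene and more RNA per cell cannot be told apart. Tcf7 was lower in the large clones of 3 of 3 mice, at 68.8 against 744 CPM in the anti-CD4, 1854 against 3393 in the tag 1 and 1345 against 4719 in the tag 2 tumour. The fitted log2 difference was -1.79 (SE 0.57, edgeR quasi-likelihood test, adjusted p = 0.616). Gzmb was higher in 3 of 3 mice, at 33291 against 28115, 10160 against 6025 and 12305 against 3747 CPM, with 1.15 (SE 0.30, adjusted p = 0.438 by edgeR). Neither passed.

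Other state genes had no common sign. The log2 difference was 1.64 in tag 2 and -0.69 in tag 1 for Pdcd1, 2.47 and -0.12 for Havcr2, and 1.60 and -0.50 for Mki67. In the anti-CD4 tumour these were 0.28, 0.28 and -0.10. Klrg1 had 1.20 in tag 1 and -0.09 and -0.02 in the other tumours. The edgeR test called 0 of 1489 genes at an adjusted p under 0.05 (0%), with 92 at an unadjusted p under 0.05 (31 higher, 61 lower), and DESeq2 called 48 (4 higher, 44 lower). The call thus depends on the tool.

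The 10 genes of widest fitted difference with 1 sign in all 3 mice were lower in the large clones, and none passed the edgeR test. They included Klra7 (-4.42, SE 0.54), Klra6 (-3.94), Klra1 (-3.68), Klra13-ps (-3.64), Il6ra (-3.24), Itgae (-2.99), Foxp3 (-2.89, SE 2.38), Cxcr5 (-2.38) and Tlr1 (-2.36), with adjusted p from 0.176 to 0.896 by edgeR. By DESeq2 the named genes other than Foxp3 did pass, with adjusted p from 1.05e-10 for Klra7 to 0.0225 for Cxcr5. Foxp3 had 0.778 by DESeq2. Klra7, an inhibitory Ly49 receptor gene, was at 3.91 against 208, 26.8 against 387 and 30.5 against 649 CPM. For this gene the large clones of each mouse lay below the other cells of every mouse. The Klra genes are near-identical copies, so reads may be split between them.

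Grouped by list, 6 of 6 naive or memory genes and 8 of 8 Ly49 genes had a fitted log2 difference below 0 (medians -1.74 and -3.81), where the median of all genes was 0.02. Of the checkpoint genes 9 of 10 were above 0 (median 0.55), as were 8 of 11 cytotoxic (0.68), 5 of 5 short-lived effector (0.60) and 8 of 10 cell-cycle genes (0.37). These signs are of the fit. In all 3 mice, 2 checkpoint, 4 cytotoxic, 1 short-lived effector and 0 cell-cycle genes were higher, while 6 naive or memory and 7 Ly49 genes were lower. The share of all tested genes with 1 sign in all 3 mice is not given here, so these counts have no background to be read against. Of 12 receptor signal and AP-1 genes 1 was above 0 (median -0.35). No member of any of these lists passed the edgeR test.

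**Figure D5:**
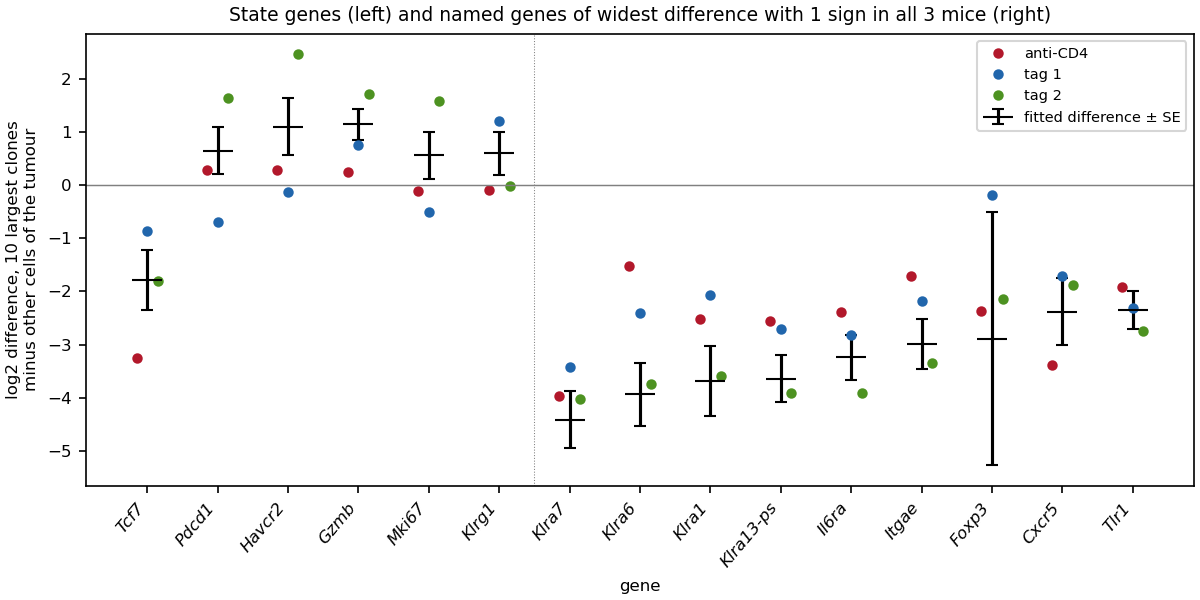
The y axis is the log2 difference of the 10 largest clones minus the other cells of the same tumour. Coloured points are the 3 mice, computed from CPM with 10 CPM added, and black marks are the edgeR fit with its SE, which carries no added CPM, so marks can lie outside the points for genes of low CPM. Tcf7 lies below 0 and Gzmb above 0 in all 3 mice, and the genes on the right, those of the widest differences named in the text, lie below 0.

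Within the large clones, the largest clone was set against clones 2 to 10 in the same way. The edgeR test called 0 of 954 genes (0%), with 49 at an unadjusted p under 0.05 (19 higher, 30 lower), and DESeq2 called 15 (7 higher, 8 lower). Klrg1 was higher in the largest clone of 3 of 3 mice, at 987 against 649 CPM, 1824 against 1283 and 181 against 98.1, with a log2 difference of 0.74 (SE 0.14, adjusted p = 0.947 by edgeR and 0.0232 by DESeq2). This is a difference from the sum of clones 2 to 10, in which larger clones weigh more. Clone by clone the largest was the highest in no tumour: anti-CD4 clone 9 had 1566 CPM, tag 1 clone 6 had 4719 and tag 2 clone 9 had 812. All 5 short-lived effector genes tested had a fitted value above 0 (median 0.64), and 9 of 9 cell-cycle genes were below (median -0.32), where the median of all genes was -0.07. Of these, 3 short-lived effector genes were higher and 1 cell-cycle gene was lower in all 3 mice, again without the share of all tested genes beside it. Tcf7 (-0.53) and Gzmb (0.63) had adjusted p of 0.986 and 0.994 by edgeR. Tnfsf8, the CD30 ligand, was lower in 3 of 3 mice at 3.39 against 13.3, 64.9 against 206 and 149 against 275 CPM (-1.43, SE 0.32, adjusted p = 0.947 by edgeR and 0.0492 by DESeq2). The other genes named by size and sign were Cxcl9 (-3.43), Cxcr5 (-2.37), Lrrc32 (-2.32), Ccr6 (-2.03), H2-DMa (-1.21), Tnfrsf4 (-1.18), Il1rl1 (-1.05), Apoe (1.92) and Cmklr1 (1.02), none past the edgeR threshold.

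The states of clones with the leading alpha chain were set beside those of the others. The 3 tag 2 clones with that chain, 2, 5 and 9, had Tcf7 shares of 41.2%, 36.1% and 87.0% and Gzmb shares of 30.7%, 41.7% and 13.0%. The other 7 tag 2 clones had Tcf7 from 13.5% to 81.4% and Gzmb from 13.7% to 67.3%, so the ranges overlap. Among the 5 anti-CD4 clones with it, Tcf7 ran from 3.92% to 7.73% and Gzmb from 88.8% to 94.3%, and among the 5 without, from 2.39% to 14.6% and 68.3% to 97.4%, so the first ranges lay within the second. Mki67 ran from 12.1% to 22.2% with it and from 19.5% to 35.8% without. Within the anti-CD4 clones 94.7% to 99.5% of the cells with an alpha chain carried the leading one of their clone. Tag 1 clone 2 (71.6%) and clone 3 (58.6%) were the exceptions among the 30 clones, with another alpha chain in 18.3% and 36.4% of their cells with an alpha chain.

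Most large clones were found in the bulk data of a draining node as well: 10 anti-CD4, 7 tag 1 and 9 tag 2 clones of 10. For the tag 1 and tag 2 mice the node and its treatment are labelled in contradictory ways, and a node was paired with a tumour by the clones they share, so for these the sharing is partly built in. Size in the tumour did not set the rank in the node. Anti-CD4 clone 8 had 8955 node reads (rank 2, 0.711%), clone 1, the largest, had 1216 (rank 101), and clone 6 had 26 (rank 7848). Tag 1 clone 4 had 1107 node reads (rank 1), clones 1 and 2 had 419 and 327 (ranks 8 and 11), and clones 6, 7 and 8 were not listed. Tag 1 clone 1 also had 304 reads in a node paired with another tumour. No other large clone of any tumour had reads in such a node. Tag 2 clone 7 had 794 (rank 2), clone 1 had 453 (rank 6), the Mki67-high clone 8 had 37 (rank 2149), and clone 3 was not listed. The Mki67-high tag 1 clone 6 and tag 2 clone 8 were thus absent or rare in the node lists. The anti-CD4 clones highest in Mki67, 9 and 2, had 418 and 403 node reads (ranks 377 and 392). The other clones that were not listed, tag 1 clones 7 and 8 and tag 2 clone 3, had Mki67 shares of 12.7%, 5.88% and 26.9%. Absence from the node list was therefore not particular to Mki67-high clones. Beta chains of the tag 1 and tag 2 clones were also read in a few cells of another tumour, up to 57 cells for tag 1 clone 1 and 18 for tag 2 clone 1, and those of the anti-CD4 clones in 0.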

How the data were processed

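The deposited gene tables hold read counts per gene and cell, not molecule counts, as the values show. The submitters' processing notes name Bowtie2 2.4.2, cutadapt 3.2 and 3.4, R 3.6.3 and GRCm38. For the receptor caller, a name is not given in the sources used here. Single-cell receptor tables, as deposited, give per cell the leading chains with estimated counts of their reads, and the authors' node tables give read counts per clone and the fraction of listed reads.

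Cells were those of sample tags 1, 2 and 5 with 6 (both anti-CD4, taken as 1 mouse). Left out were 774 cells of doublet or untagged columns, with no further doublet caller, and 10 cells with the Pmel-1 receptor. Of 12922 and 17722 cell labels, 268 occur in both cartridges, whose cells were kept apart. The 2124 genes in both tables held 99.998% and 99.98% of the reads. Each cell was thinned to 4000 reads, and 0 cells had fewer. Intervals are exact Clopper-Pearson at 95%; PCR reads are not independent molecules.

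Sums were tested with edgeR 4.0.16 (TMM, filterByExpr at 10 counts, quasi-likelihood, mouse as block, Benjamini-Hochberg at 0.05) over 6 sums, with DESeq2 1.42.0 as an alternative, in R 4.3.3 with limma 3.58.1. Python 3.11.15, numpy 2.4.6, pandas 2.3.3, scipy 1.17.1 and matplotlib 3.10.9 were used for the rest, and both scripts were tested on simulated data. Named were the 6 state genes, the 8 genes of widest spread between clones per tumour, the 3 highest and 3 lowest genes of the 2 largest clones per tumour, and, where fewer than 10 genes passed a test, the 10 of largest difference with 1 sign in all 3 mice, with a mean of 50 CPM or more. Members and gene lists were chosen with earlier results of these data known. Alternatives changed the thinning, the read minimum, the clone definition, the cells kept, the floor, the number of clones, the scaling and the mice. Nothing says that the 3 mice are replicates of a condition. Some results are not reported here.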

Additional observations from a re-analysis of the deposited data

Results flagged for a closer look

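The difference in the share of cells with a Pdcd1 read between the 10 largest clones and the other cells of the same tumour had opposite signs. It was 16.2 percentage points in the anti-CD4 tumour and 68.6 in the tag 2 tumour, and -3.39 in the tag 1 tumour. The Mki67 difference was -1.73 points in the tag 1 tumour and 19.8 in the tag 2 tumour. With 1 mouse per tumour these differences between tumours were not tested.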

How the results depend on the processing

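The differences between the highest and the lowest clone cannot be negative, so their sign says nothing. The highest clone was the same in 13 to 18 of 18 results and the lowest in 14 to 18 over the 7 settings compared. Of the 18 differences between the highest and the lowest clone, these moved beyond their interval: Tcf7 of the anti-CD4 clones, 6.75 points with at least 2 reads required (12.2 with 1), and Klrg1 of the anti-CD4 clones, 24.5 under tag 6 alone (18.2 under both). Among the tag 2 clones, leaving out cells with a macrophage or B cell marker read gave 28.0 for Pdcd1 (14.3), 69.7 for Gzmb (54.3) and 31.5 for Mki67 (43.8), and leaving out cells of more than 3 times the median reads gave 29.7 for Mki67. A marker was read in 76.9% of the 104 cells of clone 8 and in 78% of the 100 cells of clone 9. Few cells of these clones were kept without marker cells, so those values are imprecise. The cause of the moves was not tested. Of 180 clone shares, 42 moved without thinning, 29 without the cells of high reads, 22 with at least 2 reads, 14 without the marker cells, 13 at 2000 reads, 9 with the main alpha chain alone and 0 with clones by CDR3 amino acids, under which 9 of the 10 tag 2 clones stayed in the list. Of 18 class shares, 12 moved with at least 2 reads and 14 without thinning.

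A floor of 200 CPM, which tests fewer genes, left 39 anti-CD4 and 68 tag 2 genes at least 4-fold apart between clones, and a 2-fold limit gave 148, 227 and 186 genes for the anti-CD4, tag 1 and tag 2 tumours. For the 10 largest clones against other cells, edgeR called 0 genes; DESeq2 called 48, thinned cells gave 7 and leaving out the largest clone of each tumour gave 4, the last 2 counts all lower. Leaving out each mouse gave 0 to 20, the 20 without the tag 1 mouse (2 higher, 18 lower). For the largest clone against clones 2 to 10, DESeq2 called 15 and leaving out each mouse 0. The fit with no replicate block called 0 genes in both comparisons. These counts limit what 3 mice can show: each clone comes from 1 animal, reads are not molecules, and the smallest clones had 47 tag 1 and 86 tag 2 cells.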

Other observations

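The clone with the most node reads had, in each tumour, the highest level of Xcl1 of the 10. This was seen after the values were known and is a description of 3 clones, with no test. Anti-CD4 clone 8 had 7605 CPM of Xcl1 against 363 to 2233 in the other 9 clones, tag 1 clone 4 had 15857 against 20.7 to 9180, and tag 2 clone 7 had 31102 against 3921 to 22848. Xcl1 was read in 23.2%, 59.6% and 90.6% of their cells. The other cells of the same tumours had 25.2%, 25.7% and 26.6%, at 5951, 5349 and 7731 CPM. By share, anti-CD4 clone 8 was thus not above the other cells of its tumour. In tag 1 clone 4, 5 of 104 cells held 52.3% of the Xcl1 reads, and this value is not given for anti-CD4 clone 8 and tag 2 clone 7. By share of cells other clones were close, with 22.6% in anti-CD4 clone 10, 54.4% in tag 1 clone 6 and 89.4% in tag 2 clone 6. Tag 1 clones 6 and 7, the latter at 49.1%, were not listed in the node, so a high Xcl1 share was also found without node reads. The sum of the 7 precursor exhausted genes measured, of which Xcl1 is one, was also highest in these clones, at 13034, 21813 and 40399 CPM, and Xcl1 was the larger part of each. Ccr7 ranked 1, 1 and 2 of 10 in these clones, while Tcf7 ranked 3, 8 and 2. For tags 1 and 2 the pairing of node and tumour rests on shared clones.

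Immunoglobulin kappa reads (Igkc) also differed between clones, from 1.75% of the cells of tag 1 clone 6 to 48.9% of clone 10, and from 0 in tag 2 clone 7 to 39.5% of clone 10. Ighm was read in 3.51% of tag 1 clone 6, 6.38% of tag 1 clone 10, 43.6% of tag 2 clone 7 and 14.0% of tag 2 clone 10. Cxcr5, the receptor for CXCL13, was read in 38.0% (28.5 to 48.3) of tag 2 clone 9. The median over the tag 2 clones was 4.23%, and the other tag 2 cells had 13.6%. Ighm was read in 75.0% of the cells of tag 2 clone 9, and the part of B cell RNA in its Cxcr5 share was not tested.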
